A study of Homo sapiens with 3 samples.

Results

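Nuclear copies of mitochondrial genes are pseudogenes on the ordinary chromosomes, left where pieces of the mitochondrial genome were once inserted. They were read here in RNA sequencing of PC3-Luc cells in which a secreted protein, CTHRC1, had been lowered. The 6 copies described are MTND1P23, MTND2P28, MTCO1P12, MTCO2P12, MTATP6P1 and MTND6P4, taken by symbol from the 21726 genes of the deposited count table. They were selected on their counts in these same 9 libraries, so their levels and differences are given as a description, with no p-value. Calls of copies in the fit across all genes are counted once below, for that fit's record, and support nothing. The copies cannot be read as the mitochondrial proteins, because the cytosol uses another genetic code than the mitochondrion. Their parents encode subunits of complex I (MT-ND1, MT-ND2 and MT-ND6), of cytochrome c oxidase (MT-CO1 and MT-CO2) and of ATP synthase (MT-ATP6). Mitochondrial DNA is copied into long transcripts that are then cut into single messages, and these are so abundant that a near-identical nuclear copy can be given reads that come from its parent.

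PC3 is an androgen-independent line from a bone metastasis of a prostate adenocarcinoma, and in all 3 groups it carried a luciferase gene from a pMSCV-luc vector. The groups were the sh718 line and the sh720 line, both with hairpins against CTHRC1, and the shCtrl line with a control hairpin. Below, the hairpin lines are sh718 and sh720. All were grown for 24 h before RNA was taken, and each had 3 libraries of single reads of 75 bp. Whether a line's libraries stem from separate cultures, and whether a line is 1 clone, is not stated, so p-values measure only how these libraries vary, and that variation may be technical.

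Library totals ran from 883663 to 1108960 counts, and mitochondrial genome transcripts held 12% to 16.4% of them. CTHRC1 had 1 to 2 counts per library in sh718 and 10 to 19 in sh720, against 88 to 126 in shCtrl. KRT8, KRT18 and VIM were well counted in every line, and the prostate markers KLK3 and KLK2 had no count. Of the leukocyte, fibroblast and endothelial markers, PECAM1 was the one with more than 11 counts in a line (138 in sh718 and 59 in sh720, against 69 in shCtrl), while VWF and CDH5 had none. The part of these markers in the results was not tested. Levels are CPM, the count per 1e+06 counts of a library after TMM scaling. Calls rest on edgeR's quasi-likelihood test of 9556 genes with a Benjamini-Hochberg threshold of 0.05. Between bulk samples, fewer cells with a transcript and less of it per cell cannot be told apart.

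The sequences of the copies, from GENCODE release 29 of GRCh38, show how close they are to their parents. MTND1P23, MTND2P28, MTCO1P12, MTCO2P12 and MTATP6P1 stand one behind the other on the plus strand of chromosome 1 within 5315 bases, in the order of their parents on the mitochondrial genome. MTND6P4 (ENSG00000249119, 134924123 to 134924644, plus strand) lies on chromosome 5. Base by base over the aligned stretch, MTND1P23 (ENSG00000225972, 629062 to 629433) was 99.4% identical to MT-ND1, with 2 substitutions in 349 bases. MTND2P28 (ENSG00000225630, 629640 to 630683) was 98.4% identical to its parent and MTCO1P12 (ENSG00000237973, 631074 to 632616) 98.7%. MTCO2P12 (ENSG00000229344, 632757 to 633438) had 12 substitutions and 98.2% identity, and MTATP6P1 (ENSG00000248527, 633696 to 634376) 10 and 98.5%. MTND6P4 was the least alike, with 26 substitutions and 95% identity.

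For each of the 4 copies whose counts differed most clearly between lines, the 120 aligned bases with the most substitutions are shown with the same stretch of the parent. Capitals mark the bases at which copy and parent differ. The MTND1P23 stretch is chr1:629155-629274 and that of MT-ND1 is chrM:3985-4104, both on the plus strand.
MTND1P23: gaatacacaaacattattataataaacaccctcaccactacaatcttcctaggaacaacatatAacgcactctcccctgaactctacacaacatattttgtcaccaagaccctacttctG
MT-ND1: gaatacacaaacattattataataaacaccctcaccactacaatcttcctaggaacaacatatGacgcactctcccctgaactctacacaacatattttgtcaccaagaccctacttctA
The MTCO2P12 stretch is chr1:632964-633083 and that of MT-CO2 is chrM:7793-7912, both on the plus strand.
MTCO2P12: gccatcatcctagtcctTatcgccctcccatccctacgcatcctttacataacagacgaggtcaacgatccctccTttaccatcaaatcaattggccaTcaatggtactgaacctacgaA
MT-CO2: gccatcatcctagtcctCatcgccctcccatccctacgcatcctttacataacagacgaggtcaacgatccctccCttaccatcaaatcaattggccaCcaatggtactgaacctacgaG
The MTATP6P1 stretch is chr1:633768-633887 and that of MT-ATP6 is chrM:8599-8718, both on the plus strand.
MTATP6P1: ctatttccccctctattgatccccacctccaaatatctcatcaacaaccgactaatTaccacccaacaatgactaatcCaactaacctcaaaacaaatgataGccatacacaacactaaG
MT-ATP6: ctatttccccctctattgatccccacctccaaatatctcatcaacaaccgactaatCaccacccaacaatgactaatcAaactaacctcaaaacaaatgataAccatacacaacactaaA
The MTND6P4 stretch is chr5:134924403-134924522 on the plus strand and that of MT-ND6 is chrM:14274-14393 on the minus strand.
MTND6P4: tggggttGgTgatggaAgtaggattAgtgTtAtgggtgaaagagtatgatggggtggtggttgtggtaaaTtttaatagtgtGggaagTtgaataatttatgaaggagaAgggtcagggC
MT-ND6: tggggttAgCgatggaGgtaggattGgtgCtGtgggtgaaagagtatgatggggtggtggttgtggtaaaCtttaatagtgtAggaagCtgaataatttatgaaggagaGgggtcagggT
These stretches held 2, 4, 4 and 11 differences.

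A window as long as a read often could not tell copy from parent. Of all 75-base windows of a copy, the share found unaltered in its parent was 48.3% for MTND1P23 and 36.6% for MTCO1P12. It was 34.3% for MTND2P28, 28% for MTATP6P1, 10.5% for MTCO2P12 and 7.14% for MTND6P4. Only exact matches within transcripts were sought, so windows that match with a mismatch or cross a gene end were not examined. The MTCO2P12 windows also matched another nuclear copy, MTCO2P2, in 98 of 608 places, and that gene had 5 counts over all libraries. A further 12 MTCO2P12 windows occur on the reverse strand of AL669831.3, so that without strand these reads cannot be told apart. The sources used here do not give the rule for reads that match more than one place, so every level of a copy is uncertain as to its source.

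**Figure D1:**
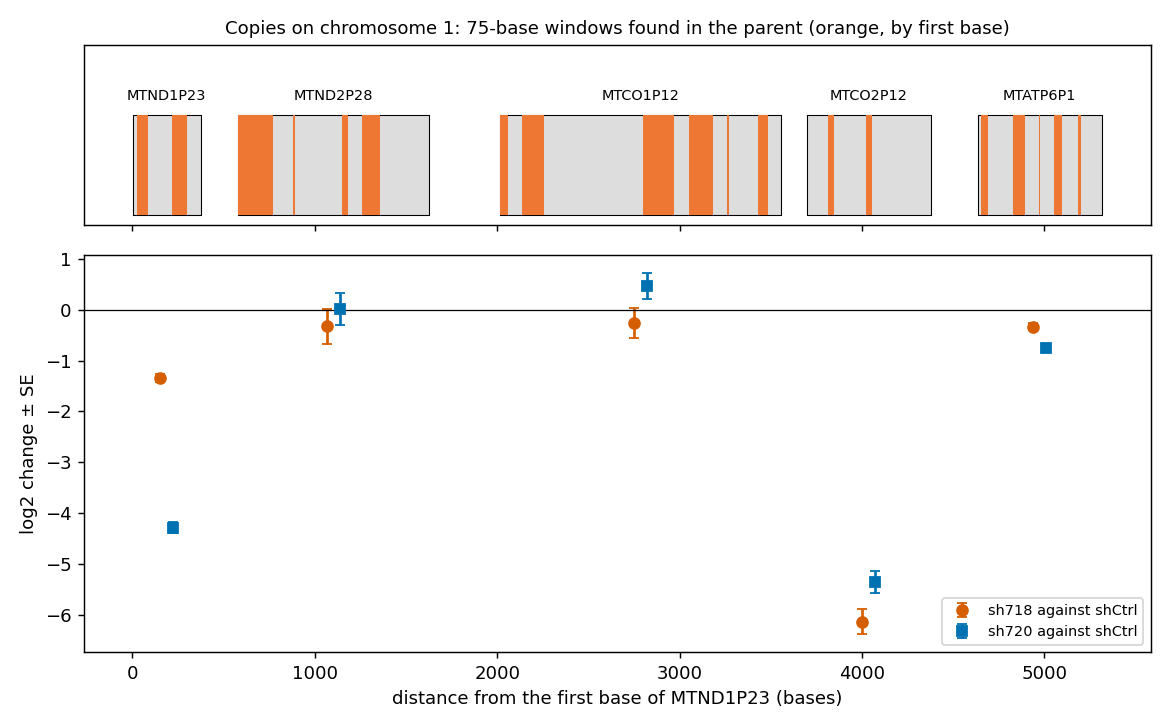
The upper panel draws the 5 copies on chromosome 1 by distance from the first base of MTND1P23 in bases, with the first bases of 75-base windows that occur unaltered in the parent in orange. The lower panel gives the log2 change of each copy against shCtrl (points, with SE as bars). For large changes the SE can be smaller than counting error. MTND1P23 and MTCO2P12 lie far below 0 in at least 1 line, while MTND2P28 and MTCO1P12, which lie between them, are within 0.47 of it.

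MTCO2P12, the copy of the cytochrome c oxidase subunit gene MT-CO2, was nearly absent from both CTHRC1 hairpin lines. It had 1.16, 2.97 and 3.13 CPM in the sh718 libraries and 3.04, 5.1 and 4.79 CPM in the sh720 libraries, against 184, 169 and 194 CPM in the shCtrl libraries. Every hairpin library lay far below every control library, and the sh718 and sh720 libraries overlapped. The log2 change was -6.14 (SE 0.24) in sh718 and -5.36 (SE 0.22) in sh720. From summed counts of 7 in sh718 and 529 in shCtrl, the ratio was 0.0135 (exact 95% counting interval 0.0054 to 0.028), and from 13 in sh720 it was 0.0236 (0.0125 to 0.0407). Intervals here and below cover counting error alone, and for changes as large as these the SE is smaller than even that error. Between sh718 and sh720 the log2 difference was -0.77 (SE 0.60).

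MTND1P23, the copy of the end of the complex I gene MT-ND1, had 3 separate levels. It had 287, 279.8 and 259.9 CPM in the sh718 libraries and 32.4, 34.7 and 39.3 CPM in the sh720 libraries, against 720.4, 704 and 663 CPM in the shCtrl libraries. No library of one line overlapped another line, with sh720 lowest and sh718 between. The log2 change was -1.33 in sh718 (SE 0.08) and -4.29 in sh720 (SE 0.11). From summed counts of 107 in sh720 and 2003 in shCtrl, the ratio was 0.0512 (counting interval 0.0418 to 0.0623). Set directly against each other, sh718 was above sh720 by 2.95 on the log2 scale (SE 0.12). MTND1P23 thus differed between the hairpin lines. For MTCO2P12, in the same block on chromosome 1, sh718 and sh720 overlapped. Its ratio of sh718 over sh720 was 0.573 (counting interval 0.194 to 1.55), so which line was lower is not settled.

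MTATP6P1, the copy of the ATP synthase gene MT-ATP6, moved far less. It had 864, 924 and 834 CPM in the sh718 libraries and 691, 643 and 617 CPM in the sh720 libraries, against 1105, 1161 and 1042 CPM in the shCtrl libraries. The lines again did not overlap, in the same order as for MTND1P23. The log2 change was -0.33 in sh718 (SE 0.07) and -0.76 in sh720 (SE 0.07), and sh718 stood above sh720 by 0.43 (SE 0.07). MTATP6P1 gave the most counts of the 6 copies, with 2476 in sh718 and 1958 in sh720, against 3173 in shCtrl.

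MTND6P4, the copy of the complex I gene MT-ND6 on chromosome 5, was counted mainly in sh720. It had 2, 2 and 1 counts in the sh718 libraries and 23, 20 and 19 counts in the sh720 libraries, against 2, 0 and 0 counts in the shCtrl libraries. The sh720 libraries stood apart, and the sh718 and shCtrl libraries overlapped. From sums of 62 in sh720 and 2 in shCtrl, the ratio was 29.7 with a counting interval of 7.89 to 251. From 5 in sh718 and 2 in shCtrl it was 2.55 (0.418 to 26.8), and from 5 in sh718 and 62 in sh720 it was 0.0858 (0.0269 to 0.211). It met the minimum for testing, a mean of 20 counts per line, through sh720 alone.

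The copies of MT-ND2 and MT-CO1 were low and overlapped between lines. MTND2P28 had 13.9, 10.9 and 9.39 CPM in sh718 and 17.2, 16.3 and 9.59 CPM in sh720, against 16.7, 11.2 and 14.6 CPM in shCtrl. Its log2 change was -0.32 (SE 0.34) in sh718 and 0.01 (SE 0.32) in sh720, so each lay within its error of 0. MTCO1P12 had 15.1, 23.7 and 13.6 CPM in sh718 and 36.4, 31.6 and 20.1 CPM in sh720, against 27.8, 15.6 and 20.1 CPM in shCtrl. Its log2 change was -0.26 (SE 0.30) in sh718 and 0.47 (SE 0.26) in sh720, and sh718 lay below sh720 by a log2 difference of -0.72 (SE 0.27). The microRNA gene MIR6723 lies inside MTCO1P12 on the other strand, and without strand the reads of these genes cannot be told apart.

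**Figure D2:**
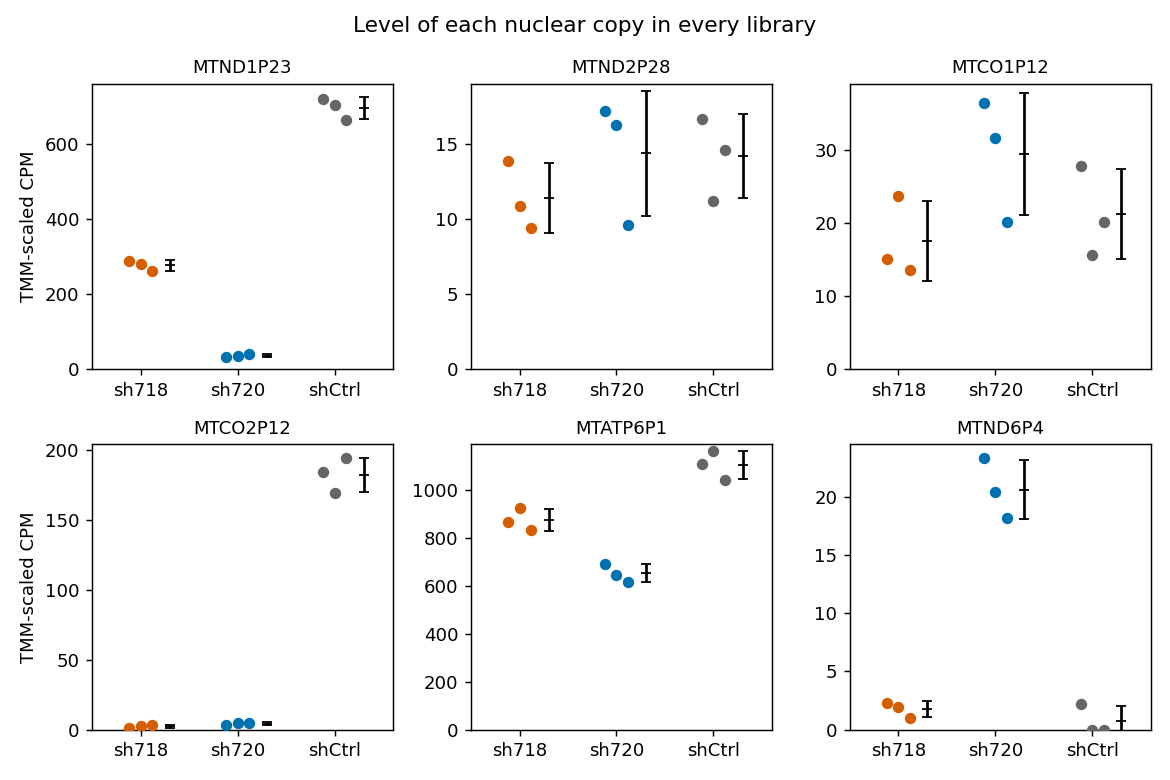
TMM-scaled CPM of each copy (vertical axes from 0, scaled per panel) in the 3 libraries of sh718, sh720 and shCtrl as points, with mean and SD as black bars. MTCO2P12 stays at or below 5.1 CPM in both hairpin lines, MTND1P23 falls into 3 levels, and MTND6P4 is above 18 CPM in sh720 alone.

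All 6 copies met the count minimum, MTND6P4 through sh720 alone and MTCO2P12 through shCtrl alone, the lines in which they were high. In sh718 against shCtrl, 0 were called higher and 3 lower, where 20.3% of all tested genes were called (9.3% higher and 11% lower). The same 3 were the ones whose libraries did not overlap, against 33.5% of all tested genes (15.9% higher and 17.6% lower). In sh720 against shCtrl, 1 was called higher and 3 lower, and the same numbers did not overlap. Of all tested genes 6.79% were called there (3.31% higher and 3.48% lower) and 23.5% did not overlap (11.2% higher and 12.3% lower). In sh718 against sh720, 2 were called higher and 2 lower, where 25.3% of all tested genes were called (12.2% higher and 13.1% lower). There 2 did not overlap on the higher side and 1 on the lower, against 37% of all tested genes (18.1% higher and 18.9% lower). The choice of the copies and the count minimum bear on these numbers, so nothing is read from them. The call of MTCO1P12 in sh718 against sh720 was lost without sh718 library 1 or 3 or sh720 library 1 or 2 (log2 -0.67 to -0.54), with no filter on counts and by DESeq2. The median log2 change of the copies was -0.33 in sh718 and -0.38 in sh720, beside 0.00 for all tested genes in both comparisons, which share the control libraries. The 6 copies together made up 0.109% to 0.123% of a library in sh718 and 0.0746% to 0.0806% in sh720, against 0.191% to 0.206% in shCtrl.

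Levels can be set side by side when given per kilobase. In shCtrl, MTND1P23 (1869.7 ± 79.8 CPM per kb, SD, n = 3) and MTATP6P1 (1619 ± 87.2) led, followed by MTCO2P12 (267 ± 17.9). MTCO1P12 (13.7 ± 4.01) and MTND2P28 (13.6 ± 2.69) did not differ beyond their spread, and MTND6P4 was last at 1.42 ± 2.46. In sh718 the order per kilobase was MTATP6P1 (1283 ± 67.1), MTND1P23 (741 ± 37.9), MTCO1P12 (11.3 ± 3.55) and MTND2P28 (10.9 ± 2.22). MTCO2P12 (3.55 ± 1.6) and MTND6P4 (3.41 ± 1.27) came last there and did not differ beyond their spread. In sh720, MTATP6P1 stood at 956 ± 55.2 CPM per kb, MTND1P23 at 95.3 ± 9.47 and MTND6P4 at 39.5 ± 4.87, above MTCO1P12 (19.1 ± 5.43), MTND2P28 (13.8 ± 3.99) and MTCO2P12 (6.32 ± 1.63). A level per kilobase treats all bases of a copy as countable, which the shared windows may not be.

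The parents, which the choice of copies did not use, were tested in the same fit. They changed by far less than MTCO2P12, MTND1P23 or MTND6P4. MT-CO2 fell by 0.22 on the log2 scale in sh718 (SE 0.05, edgeR adjusted p 0.00204) and lay at the threshold in sh720 (log2 -0.17, SE 0.05, adjusted p 0.04999). The sh720 call was lost under 3 other scalings, with DESeq2, in the fit of the compared lines alone, and without sh720 library 2 or 3, shCtrl library 1 or 2, or sh718 library 1 or 3 (adjusted p 0.05097 to 0.2568). The sh718 call of MT-CO2 was lost without sh718 library 3 (adjusted p 0.05733).

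MT-ND1 fell in both lines, with 2339.6, 2313 and 2296 CPM in sh718 and 2829.7, 2709 and 2376 CPM in sh720, against 3876, 3995 and 4489.7 CPM in shCtrl. The log2 change was -0.83 (SE 0.06, adjusted p 4.08e-18) and -0.64 (SE 0.06, adjusted p 2.68e-13). MT-ATP6 fell in sh720 (log2 -0.40, SE 0.06, adjusted p 1.78e-07), and its change in sh718 was 0.03 (SE 0.06, adjusted p 0.728). MT-ND2 changed by -0.16 and -0.40 (adjusted p 0.0246 and 4.38e-08) and MT-CO1 by -0.36 and -0.52 (0.000225 and 6.9e-07) in sh718 and sh720. MT-ND6 fell by 0.17 in sh718 (SE 0.06, adjusted p 0.0311) and lay at 0.03 in sh720 (SE 0.06, adjusted p 0.856), the line in which its copy had the most counts. The sh718 call of MT-ND2 was lost without any 1 of the sh718 libraries or without shCtrl library 1 or 2, and that of MT-ND6 without sh718 library 2 or 3 or shCtrl library 1 or 3. Both were lost with DESeq2, and MT-ND6 also in the fit of the compared lines alone. DESeq2 called MT-CO1 in neither line (adjusted p 0.2065 and 0.067).

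**Figure D3:**
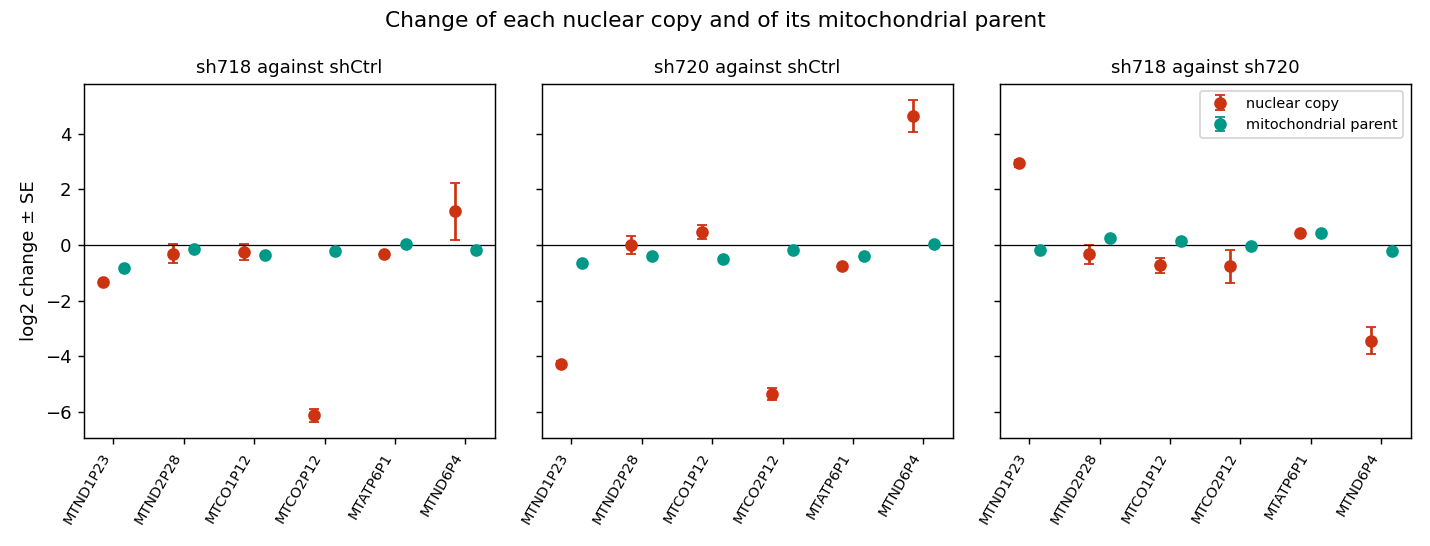
Log2 change (vertical axis, with SE as bars) of each nuclear copy, in red, and of its mitochondrial parent, in green, in the 3 comparisons. Parents stay between -0.83 and 0.44, while MTCO2P12 reaches -6.14 and MTND6P4 reaches 4.66. For large changes the SE can be smaller than counting error.

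The share of a pair's counts listed on the copy shows how unevenly copy and parent differed. MTND1P23 held 10.9%, 10.8% and 10.2% of the MTND1P23 and MT-ND1 counts in the sh718 libraries and 1.13%, 1.26% and 1.63% in the sh720 libraries, against 15.7%, 15% and 12.9% in the shCtrl libraries. No line overlapped another. MTCO2P12 held 0.018% of its pair over the sh718 libraries (exact 95% interval 0.00723% to 0.037%) and 0.0304% over the sh720 libraries (0.0162% to 0.0519%), against 1.14% over the shCtrl libraries (1.04% to 1.24%). The intervals of the hairpin lines overlap each other and lie far under that of the control line.

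MTATP6P1 held nearly the same share in both hairpin lines, 7.31% to 7.84% in sh718 and 7.65% to 7.68% in sh720, against 9.49% to 9.83% in shCtrl. Its lower level in sh720 than in sh718 was thus matched by MT-ATP6, which differed by 0.44 between sh718 and sh720, beside 0.43 for the copy. MTND6P4 held 0.0584% of its pair in sh718 (0.019% to 0.136%) and 0.587% in sh720 (0.45% to 0.751%), against 0.0202% in shCtrl (0.00245% to 0.0729%). MTND2P28 held 0.164%, 0.245% and 0.185% in sh718, sh720 and shCtrl, with overlapping intervals. MTCO1P12 held 0.501% in sh718 (0.372% to 0.659%) and 0.912% in sh720 (0.732% to 1.12%), against 0.46% in shCtrl (0.352% to 0.59%). The sh720 interval thus lay above the others. By library, sh718 library 2 (0.858%) still lay above sh720 library 3 (0.756%).

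**Figure D4:**
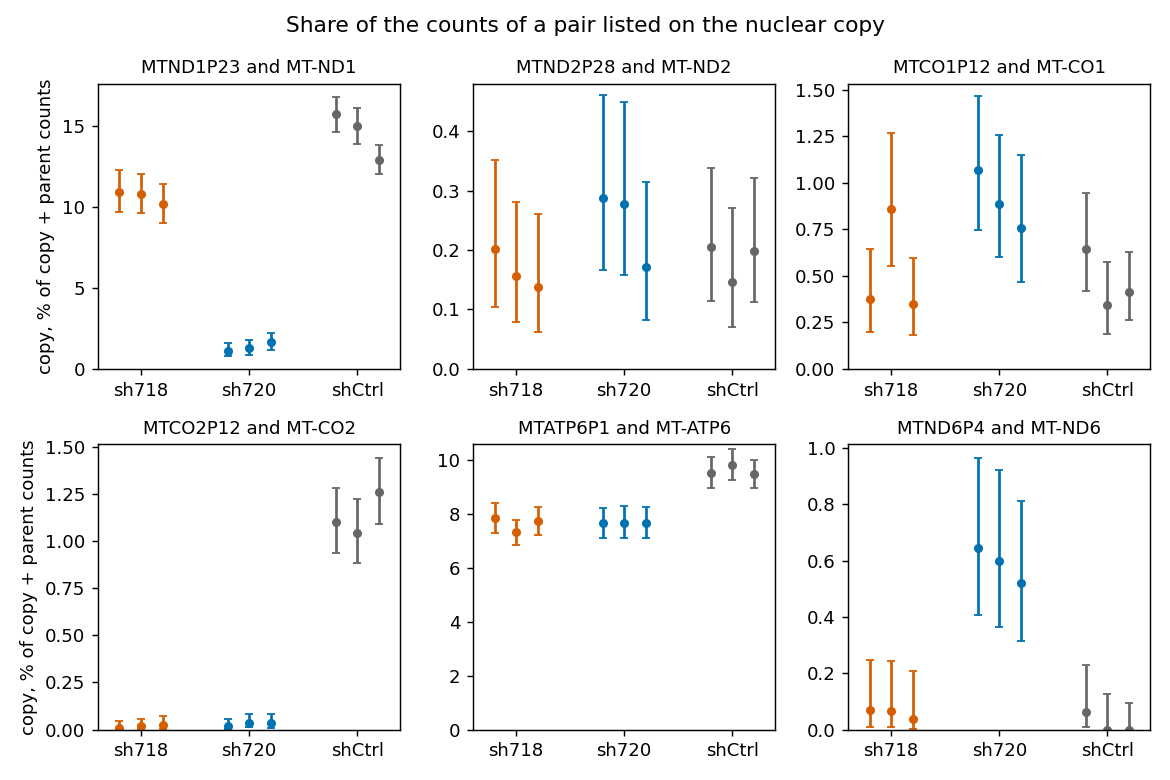
Counts of each copy as a percent of the counts of copy and parent together (vertical axes from 0, scaled per panel) in every library of sh718, sh720 and shCtrl, with exact 95% binomial intervals as bars. MTND1P23 is near 10% in sh718 and at 1.63% or less in sh720, and MTATP6P1 keeps a share of 7.31% or more in all libraries.

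Adding the counts of the copy to those of the parent altered the comparison for MT-ND1. The sum sets aside how counted reads were divided within a pair, but restores no reads that may have been left out for matching both. MT-ND1 alone was lower in sh718 than in sh720 (log2 -0.19, SE 0.06, edgeR adjusted p 0.0161). With MTND1P23 added, the difference was -0.04 (SE 0.06, adjusted p 0.639). Against shCtrl the summed pair stood at -0.89 in sh718 and -0.85 in sh720, beside -0.83 and -0.64 for MT-ND1 alone. For the other 5 pairs the sum moved the log2 change of the parent by at most 0.0322 in any comparison.

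Of 26 other nuclear copies in the table, 3 met the count minimum. MTND6P3, another copy of MT-ND6 on chromosome 5 with 89.4% identity, had 33.8 ± 4.29 CPM in sh718 and 33.4 ± 6.5 in sh720, against 45.7 ± 9.6 in shCtrl (SD, n = 3), and was called in neither line (edgeR adjusted p 0.153 and 0.205). None of its 75-base windows occurs in MT-ND6. MTND4P12, a copy of MT-ND4 beside MTND6P4 on the other strand (134926660 to 134928036), had 4, 1 and 3 counts in sh718 and 16, 8 and 8 counts in sh720, against 4, 6 and 4 counts in shCtrl. Its ratio of sh720 over shCtrl was 2.19 (counting interval 1.14 to 4.45), and the sh720 libraries lay above all others, as they did for MTND6P4. MTND5P11, which lies between them and was looked at after its values were seen, had 9 counts in sh720 library 3 and 0 in the other sh720 libraries, with 1 count in sh718 and 4 in shCtrl. MTCO3P12, which follows MTATP6P1 on chromosome 1 and was likewise chosen after its values were seen, had 2 counts in sh718 and 7 in sh720, against 8 in shCtrl.

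Ordinary genes around the insertions were read in the same fit. Within 1 Mb of the chromosome 1 copies, 24 genes were tested. In sh718, edgeR called 9 of them lower and 0 higher, where 11% of all tested genes were called lower and 9.3% higher. DESeq2 called 5 lower and 0 higher, where it called 1007 of all tested genes in either direction, and the median log2 change was -0.37. At an unadjusted p under 0.05 there were 16 lower and 0 higher. The share of all tested genes at that threshold was not counted, here or below, so nothing is read from such numbers. In sh720 edgeR called 1 lower and 0 higher, where 3.48% of all tested genes were called lower and 3.31% higher. The 1 call was ISG15, an interferon-induced ubiquitin-like gene chosen after its values were seen, at -0.31 (edgeR adjusted p 0.0313). DESeq2 called 0 in sh720, where it called 298 of all tested genes. At an unadjusted p under 0.05, 1 was higher and 5 were lower in sh720, and the median was -0.06. AURKAIP1, a mitochondrial ribosome-associated gene and the most counted of them, fell by 0.45 in sh718 (edgeR adjusted p 2.16e-05) and lay at 0.00 in sh720. The lowest of these neighbours, chosen after their values were seen, were FNDC10 at -1.78 in sh718 and ATAD3B at -0.58 in sh720 (adjusted p 1.19e-05 and 0.234), beside -6.14 and -5.36 for MTCO2P12. Within 1 Mb of MTND6P4, 16 genes were tested, of which edgeR called 1 in sh718 and 0 in sh720. Of all tested genes, 20.3% were called in sh718 and 6.79% in sh720. At an unadjusted p under 0.05 there were 2 higher and 0 lower in sh718 and 3 higher and 1 lower in sh720. DESeq2 called 1 and 0, where it called 1007 and 298 of all tested genes. The gene called in sh718 was SKP1, a ubiquitin ligase subunit gene, at 0.25 in sh718 (adjusted p 0.0119, lost without sh718 library 2 or shCtrl library 3), with -0.10 in sh720 (adjusted p 0.537).

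The nuclear genes that make and process mitochondrial RNA act on the parents. Their list also held factors of mitochondrial DNA, such as SSBP1 and POLG2, of which POLG2 was among those called lower in sh718. Of 29 tested, edgeR called 1 higher and 8 lower in sh718, where 9.3% of all tested genes were called higher and 11% lower, and DESeq2 called 1 and 6. In sh720 edgeR and DESeq2 both called 0, where edgeR called 3.31% of all tested genes higher and 3.48% lower. At an unadjusted p under 0.05 there were 0 higher and 2 lower, with the share of all tested genes not counted. The medians were -0.04 and -0.06. SSBP1, the mitochondrial single-strand DNA binding protein gene, lay at 0.13 and -0.09 (edgeR adjusted p 0.315 and 0.644), and REXO2, an oligoribonuclease gene, fell by 0.43 in sh718 (adjusted p 0.000322) and lay at 0.00 in sh720. TFB2M, which encodes a factor that starts mitochondrial transcription and was chosen after its values were seen, fell by 2.50 on the log2 scale in sh718 (SE 0.29, adjusted p 1.68e-10), with -0.23 in sh720 (SE 0.20, adjusted p 0.583). Of the 13 mitochondrial protein genes, edgeR called 1 higher and 8 lower in sh718 and 7 lower in sh720, with medians of -0.17 in both, while DESeq2 called 5 lower in each. Of all tested genes, 11% were called lower in sh718 and 3.48% in sh720. MT-ND3, at -0.60 and -0.36 (adjusted p 9.48e-12 and 1.6e-05), and MT-CYB, at -0.48 and -0.27 (adjusted p 4.83e-09 and 0.00118), fell in both lines. The sh720 call of MT-CYB was lost without sh720 library 3 (adjusted p 0.06983).

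The genes with the most similar pattern to each copy were found by Pearson r of log2(CPM + 1) over the 9 libraries. The libraries of a line share that line's state, so the values describe likeness only. For MTCO2P12 they included ADK (r = 0.986) and PPIF (0.977) on chromosome 10. For MTND1P23 they were HK1 (0.989) on chromosome 10 and RPL29 (0.985) and MANF (0.973) on chromosome 3, and for MTATP6P1 they were RHOA and RPL29 (both 0.986) on chromosome 3 and SAR1A (0.976) on chromosome 10. ADK had log2 changes of -0.82 and -0.74 in sh718 and sh720. For MTND6P4 they were KLHL5 (0.962) on chromosome 4, LDHA (0.959) on chromosome 11 and PTMAP2 (0.957) on chromosome 5. PTMAP2 had log2 changes of 1.45 in sh718 and 5.94 in sh720, beside 1.21 and 4.66 for MTND6P4. For MTCO1P12 the highest was NOL3 (0.922), followed by EXO1 and EPRS1 (both 0.905), and for MTND2P28 it was RNF217 (0.897), followed by LSM12 (0.891) and ITPR1 (0.88).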

How the data were processed

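Counts are the raw, whole-number counts per Ensembl gene that the authors deposited for 9 libraries, without normalization. Trim Galore and GRCh38 are named per the submitters' processing notes. The sources used here do not give the aligner, the counter, the annotation, the strand setting or what was done with reads of several matches. Each numbered column was taken as 1 library of the line it names.

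The copies and gene lists were chosen with earlier results of these data known. Genes with a mean of at least 20 counts per line (summed over its 3 libraries) entered a quasi-likelihood test (edgeR 4.0.16 under R 4.3.3, with glmQLFit, glmQLFTest and TMM factors, all 9 libraries in 1 model of line), with Benjamini-Hochberg adjustment over 9556 genes. SE is the log2 change divided by the square root of F, and for large changes it can be smaller than counting error. The test was checked on simulated data. Library totals of 883663 to 1108960 leave genes with a few counts with wide intervals (95%, exact). The other tools were DESeq2 1.42.0 and biopython 1.88, which aligned each copy with its parent (local, match 1, mismatch -2, gap -6 to open and -2 to extend). Positions and sequences came from GENCODE release 29, in which 21258 of 21726 identifiers were found. Genes named were the copies, their parents, the most counted other copies, list members called with both hairpins or else the 2 most counted, and the 3 genes most like each copy, of which 1 is not reported here.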

Additional observations from a re-analysis of the deposited data

Results flagged for a closer look

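The levels of 4 of the parent genes differed between the sh718 and sh720 lines, by the direct comparison in edgeR. With 1 line per hairpin, hairpin and line cannot be told apart. MT-ATP6 differed by a log2 of 0.44 (adjusted p 5.75e-09) and MT-ND2 by 0.24 (adjusted p 0.000378), both higher in sh718 than in sh720 (log2 0.03 and -0.16 against shCtrl in sh718, and -0.40 for both in sh720). MT-ND6 differed by -0.20 (adjusted p 0.00807), a call lost with DESeq2 (0.0546) and without sh718 library 3 (0.1319). MT-ND1 differed by -0.19 (adjusted p 0.0161), a call lost with DESeq2 (0.1023), without sh718 library 3 or sh720 library 1 or 2 (0.06215 to 0.1479), and when MTND1P23 was added (0.639).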

How the results depend on the processing

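The called genes numbered 1944 in sh718 against shCtrl, 649 in sh720 against shCtrl and 2416 in sh718 against sh720, and 1007, 298 and 1293 with DESeq2. They stayed within 1.5 times under the other scalings and filters, the fit of the compared lines alone, and the leaving out of each library (1506 to 1919, 466 to 708 and 1927 to 2406). Library numbers did not pair the samples: deviations from the line mean had correlations of -0.0116 to 0.0235 in 9 same-numbered pairs, and with a replicate block the calls came to 1974, 682 and 2425. The log2 changes of the 6 copies moved by less than the spread between libraries in 304 of 306 alternatives. The exceptions were MTND6P4 without shCtrl library 1, which leaves no control count (3.89 in sh718 and 7.34 in sh720). DESeq2 gave no adjusted p for MTND6P4 in sh720. MTRNR2L12 in sh720 against shCtrl turned to 0.1453 without shCtrl library 3, with a range of -1.342 to 0.1453 over the libraries left out. Of 324 alternatives for the parents, 33 lost a call. The calls gained were those of MT-CO1 in sh718 against sh720, without sh718 library 2 (0.31) or sh720 library 2 (0.23). MT-CO2 in sh720, at the threshold by itself (edgeR adjusted p 0.04999), stayed called with its copy added (-0.18, adjusted p 0.0256). Shorter windows of 50 bases gave 18% to 61.9% found in the parent and windows of 100 bases 0% to 34.4%. Depth limits the copies with few counts: MTND6P4 had 2 counts in shCtrl and MTCO2P12 had 7 in sh718.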

Other observations

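Besides MTND6P3, the other copies that met the count minimum were MTRNR2L12 and MTRNR2L8. Both are humanin-like genes, nuclear relatives of the mitochondrial ribosomal RNA gene MT-RNR2. MTRNR2L12 had 87.2, 25.7 and 53.2 CPM in sh718 and 129.6, 109 and 73.8 CPM in sh720, against 89.1, 99.2 and 412 CPM in shCtrl. One control library stood far above the other two. With all libraries the log2 change was -1.944 in sh718 and -1.003 in sh720 (edgeR adjusted p 1.64e-07 and 0.00428). Without shCtrl library 3 it was -0.80 and 0.15 (adjusted p 0.00587 and 0.774), and DESeq2 called it in neither line (0.08401 and 0.6878). MTRNR2L8 lay at -0.20 in sh718 and 0.05 in sh720 and was called in neither (adjusted p 0.513 and 0.92), and MTRNR2L10 had 20 counts over all libraries.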
